A study of Mus musculus with 4 samples.

Results

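KAP1 sites were described at 9 genes of iron uptake and ferritin turnover in mouse regulatory T cells. The genes were Ncoa4, Tfrc, Fth1, Ftl1, Slc11a2, Slc40a1, Ireb2, Aco1 and Hmox1, out of 21900 protein-coding genes in the RefSeq table of GRCm38.p6, and all 9 were found by symbol. They were chosen by their role in iron handling and with earlier results of these data known, namely the high scores of the summit beside Ncoa4 and the summit at an end of Tfrc. The values below are therefore a description and carry no test. KAP1, the product of Trim28, is a corepressor brought to DNA by KRAB zinc finger proteins, and ChIP-seq (chromatin immunoprecipitation followed by sequencing) shows where it sits on chromatin. Regulatory T cells are CD4 T cells that express Foxp3 and dampen immune reactions. They were taken from the spleen of C57BL/6 mice, sorted and expanded for 2 weeks in culture. In one group, 2 samples (replicates 1 and 2) were precipitated with a KAP1 antibody from Active Motif (clone 1Tb-A9). In the other, 2 input samples had no antibody, and these were not analysed here. No treatment or genotype other than the strain is labelled, and nothing in the labels ties the replicates to separate cultures or animals, so that they may differ for technical reasons.

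Iron enters most cells bound to transferrin, through the transferrin receptor made by Tfrc, and leaves the endosome through the transporter made by Slc11a2. Surplus iron is stored in shells of ferritin heavy chain (Fth1) and light chain (Ftl1). NCOA4 carries ferritin to the lysosome, where the iron is released again, a process called ferritinophagy. Dividing T cells are known for high transferrin receptor levels. The iron regulatory proteins made by Aco1 and Ireb2 sense iron and control the mRNAs of the receptor, of ferritin and of ferroportin (Slc40a1), the iron exporter, while heme oxygenase 1 (Hmox1) frees iron from heme.

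Each KAP1 sample has 1 list of summits, the positions of highest enrichment within a peak, each with a score. The score is a −log10 value of the peak caller, for either p or q. The lists differ in length, with 8862 summits in replicate 1 and 79515 in replicate 2, and read depth is not recorded in them. The score had a median of 7.25 in replicate 1 and 8.39 in replicate 2, and is the authors' own value, used here only to rank and describe summits within a list. A summit was called paired when the other replicate had one within 200 bp, as 7720 of the replicate 1 summits did. Genes of the labelled cell type and of others were also looked at. All 5 regulatory T cell genes examined (Foxp3, Il2ra, Ctla4, Ikzf2 and Tnfrsf18) had a paired summit within 20 kb. So did all 4 T cell genes (Cd3e, Cd3g, Cd4 and Cd28), where 32.7% of all coding genes had one. Such a summit was also found at 2 of 4 B cell genes, 3 of 6 erythroid genes and 0 of 5 genes of iron-recycling macrophages. Within 1 kb of a gene end, 2 of the 5 regulatory T cell genes (Ctla4 and Il2ra) had a paired summit. So did 2 of the 4 T cell genes (Cd28 and Cd3g) and none of the other lists, where 8.56% of all coding genes had one. Gene length was not matched. ChIP-seq of KAP1 does not measure expression, so this is no measure of which cells were present.

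Of the 9 iron genes, 2 had a paired summit within 1 kb of a gene end, Ncoa4 and Tfrc, where 8.56% of all coding genes had one. The gene that held the stronger of these, Ncoa4, had one of the highest scores of either list. In the body (the gene without the 1 kb at either end), Tfrc alone among the 8 genes with a body had a paired summit, where 12.4% of all coding genes had one. Within 20 kb, Ncoa4 and Tfrc were again the only 2 of the 9, where 32.7% of all coding genes had one. Over the 9 genes with 20 kb on both sides there were 8 replicate 1 summits, of which 7 were paired, and 42 replicate 2 summits, of which 35 were unpaired. In the whole lists, 7720 of 8862 replicate 1 summits and 7719 of 79515 replicate 2 summits were paired.

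The sequences upstream of the first listed transcript starts of Ncoa4 and Tfrc are shown because the paired end summits lie just upstream of them. A stretch of 30 bases upstream of the Ireb2 start is added because Ireb2 shares a motif with Ncoa4 but lacks any end summit in both lists. They are taken from RefSeq (GRCm38.p6, + strand, those of Ncoa4 and Tfrc ending before the gene's lowest coordinate) and written 5′ to 3′. Capitals mark the letters GTTCGA, in either orientation, and TCTCGCGAGA, which reads the same on both strands.
Ncoa4, chr14:32159637-32159878: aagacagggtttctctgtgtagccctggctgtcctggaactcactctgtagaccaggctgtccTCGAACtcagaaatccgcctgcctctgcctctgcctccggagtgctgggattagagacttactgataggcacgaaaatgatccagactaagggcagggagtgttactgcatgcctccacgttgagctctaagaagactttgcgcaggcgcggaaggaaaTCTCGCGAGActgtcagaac
Tfrc, chr16:32608646-32608895: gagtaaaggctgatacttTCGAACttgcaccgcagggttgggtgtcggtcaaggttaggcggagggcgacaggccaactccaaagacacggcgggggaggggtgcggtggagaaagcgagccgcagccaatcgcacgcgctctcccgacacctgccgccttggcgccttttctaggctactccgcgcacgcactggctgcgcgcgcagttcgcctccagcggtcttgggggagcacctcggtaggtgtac
Ireb2, chr9:54863670-54863699: ggtccgaggaTCTCGCGAGAgttagccggc

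The printed stretches of Ncoa4 and Tfrc begin a short way downstream of the summits, at 63 bp and 47 bp from the replicate 2 position, so the summits themselves lie just before the first printed letter. The Ncoa4 stretch has a G+C content of 54.1% and 10 CpG pairs, the Tfrc stretch 64.8% and 25, and the whole Ireb2 window of 250 bases 63.6% and 24. The median of 21263 windows of 250 bases upstream of coding gene starts was 55.6% and 10 CpG pairs. Ncoa4 is therefore near the median on both measures, and Tfrc and Ireb2 are above it.

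GTTCGA is the core of the B box, an internal promoter element of tRNA genes. It was found 128 bp from the replicate 1 summit at Ncoa4 and 66 bp from that at Tfrc, and in 2.35% of the 21263 windows. Whether any of these matches lies in a tRNA gene or in a repeated element was not examined, so none is called a B box. TCTCGCGAGA, a palindrome known from CpG-rich promoters as the target of the protein BANP, was found 28 bp upstream of the first listed start of Ncoa4 and 75 bp upstream of that of Ireb2, and in 0.564% of the windows. Of 480 genes with GTTCGA in a window, 13.3% had a paired end summit, and of 113 genes with TCTCGCGAGA 15.9% did, against 8.52% of all 17492 coding genes with a window. GTTCGA was picked after the sequences had been read, and TCTCGCGAGA is the only palindrome of 10 bases found in windows of more than 1 of the iron genes. Ncoa4 is itself counted in both shares, and Tfrc in that of GTTCGA. The genes were not matched for G+C content, and a link between motif and summit was not tested. The GC box GGGCGG was found in 42.6% of the windows, and 11.2% of its genes had a paired end summit. For CCAAT these shares were 35.4% and 8.54%, for TATAAA 11.6% and 4.47%, and for TGACGT 7.37% and 11.9%. Motifs were searched on both strands, and a match describes letters only. Of the 9 iron genes, 6 had 1 or more windows in the promoter table, 10 in all, and none of the 10 held a summit of either replicate. Hmox1, Slc11a2 and Slc40a1 were not in that table.

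**Figure D1:**
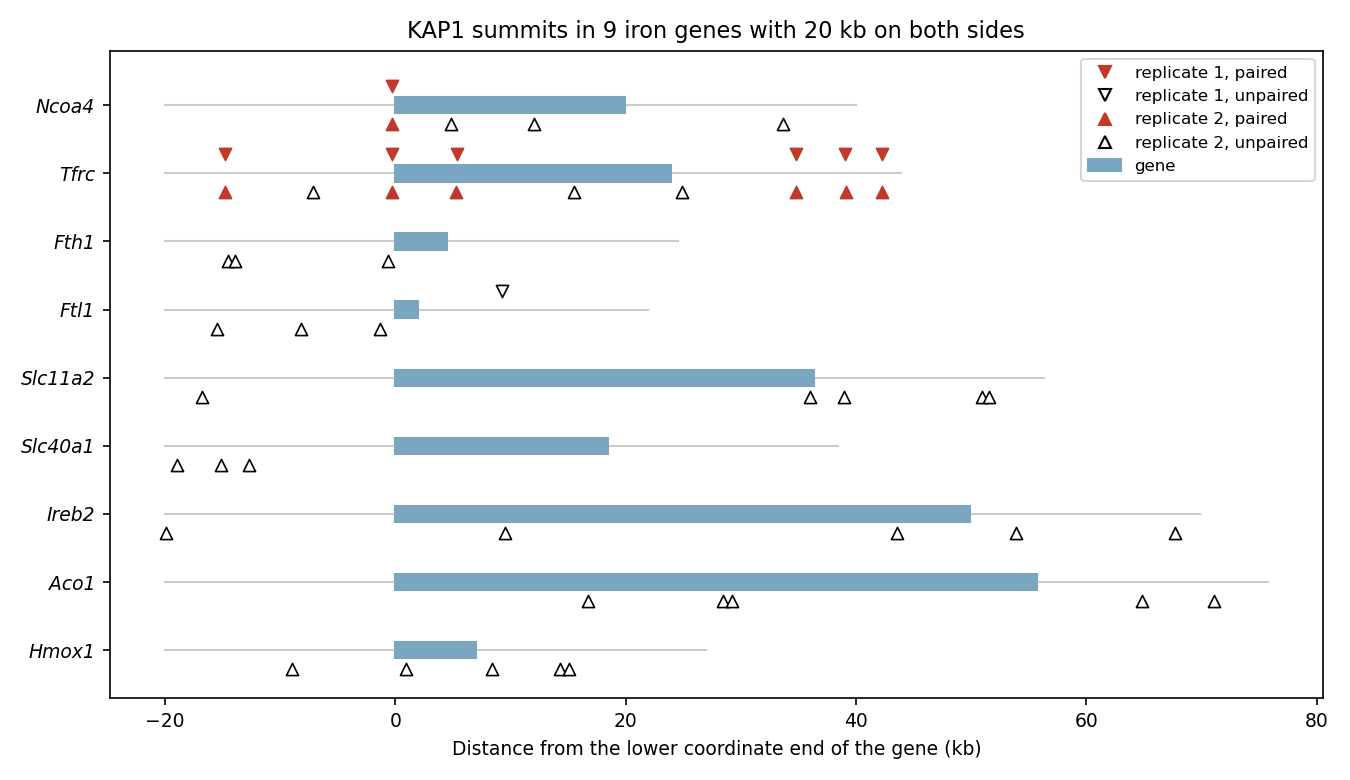
Position of every KAP1 summit in the 9 iron genes and 20 kb on both sides, in kb from the lower coordinate end of each gene. Bars are genes, triangles above are replicate 1 summits and triangles below replicate 2 summits, and filled triangles are paired within 200 bp. Filled triangles appear only at Ncoa4 (1 pair) and Tfrc (6 pairs).

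For ferritin release, Ncoa4 (gene 27057, chromosome 14, 32159879 to 32179855) had 1 paired summit. It lay at position 32159572 in replicate 1 and 32159574 in replicate 2, 2 bp apart, with a score of 136.6 in replicate 1 and 145.4 in replicate 2. Both replicates thus placed it at nearly the same base, 307 bp below the gene and 315 bp upstream of the nearest listed transcript start. It ranked 2 of 8862 summits in replicate 1 and 4 of 79515 in replicate 2. Among the 1875 coding genes with a paired end summit, that of Ncoa4 had the highest mean percentile of the 2 scores.

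The rest of Ncoa4 carried summits of replicate 2 alone. In the body these were at 32164679 (score 6.51) and 32171960 (score 11.5). The first lay 907 bp upstream of the second listed transcript start of the gene, at 32165586, and its score was below the replicate 2 median. Another unpaired summit, at 32193577 (score 6.50), fell inside Timm23, a gene of mitochondrial protein import that begins 311 bp above the higher end of Ncoa4. Timm23 had none within 1 kb of its ends. On the other side, Msmb, 1552 bp below Ncoa4, held none from either list, so Ncoa4 was the nearest coding gene of the strong site and neither neighbour had an end summit.

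By the nearness of the percentile ranks of their best paired end summit in both lists, the coding genes most like Ncoa4 were Ino80d, Rex1bd and Rara. Ino80d, which encodes a subunit of the INO80 chromatin remodeller, had scores of 96.9 and 125.0, at 68 bp outside the gene. Rex1bd had scores of 93.8 and 107.6, at 44 bp. Rara, which encodes a retinoic acid receptor, had 95.9 and 95.7, at 620 bp. The measure uses only 2 values a gene, 1 per sample. As Ncoa4 had the highest mean percentile, these are the genes at ranks 2, 3 and 4 below it. Their scores were lower than those of Ncoa4 in both lists, so the likeness is one of rank alone.

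**Figure D2:**
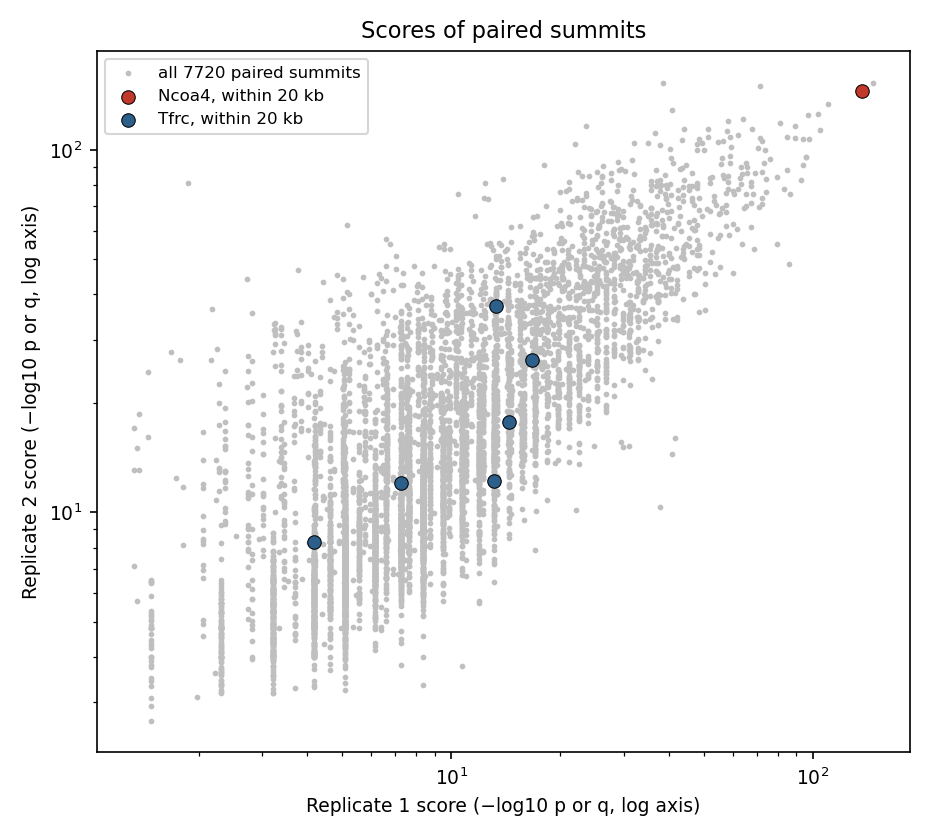
Replicate 2 score against replicate 1 score (both −log10 values for p or q, log axes) for all 7720 paired summits in grey, with the paired summits within 20 kb of Ncoa4 (red) and Tfrc (blue). The Ncoa4 point, at 136.6 and 145.4, is at the upper right corner of the cloud, and the 6 Tfrc points lie between 4.17 and 16.7 in replicate 1 and between 8.31 and 37.1 in replicate 2.

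Among the uptake genes, Tfrc (gene 22042, chromosome 16, 32608896 to 32632794) had 6 paired summits within 20 kb, where the median coding gene had 0. The end summit, at 32608598 in replicate 1 and 32608599 in replicate 2, had scores of 16.7 and 26.3. It lay 298 bp upstream of the first listed transcript start and ranked 364 among the 1875 genes with a paired end summit. At the level of the start, Tfrc and Ncoa4 were alike in distance and side, 298 and 315 bp upstream, and unlike in score.

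The body summit of Tfrc stood in a different order in the 2 lists. It had a score of 13.3 at 32614234 in replicate 1 and of 37.1 at 32614149 in replicate 2. In replicate 2 it was the highest of the locus, above the end summit, and in replicate 1 it was below it. Its positions were 85 bp apart, against 1 to 38 bp for the other 5 Tfrc pairs. With pairs required to lie within 50 bp, this body site was no longer paired, and 0 of the 8 iron genes with a body had a paired body summit, where 11.8% of all coding genes did. The site lies 5112 bp downstream of the nearest listed start, that at 32609122, on the replicate 1 position.

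On its lower side Tfrc had a weaker pair, 14811 bp from the gene, with scores of 4.17 and 8.31. The 3 remaining pairs lay above the gene and closest to another one, Tnk2, a tyrosine kinase gene that begins 11305 bp above Tfrc. They had scores of 14.4 and 17.8 at 32643703, 396 bp outside Tnk2, of 7.25 and 12.1 at 32647961, and of 13.2 and 12.2 at 32651188. The last 2 lie inside Tnk2. Of the 6 pairs, 3 thus had Tfrc as their nearest coding gene. Replicate 2 alone had 3 further summits in the span of Tfrc, with scores from 6.37 to 11.6, 1 of them 951 bp above the higher end and so counted at an end.

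Slc11a2 (gene 18174, chromosome 15, 100387898 to 100424209), which encodes the iron transporter DMT1, had 5 summits in its span, all of replicate 2. The one at an end, at 100423918, lay 291 bp inside the higher end and had a score of 6.05, at percentile 15.5 of its list. Another, 2651 bp above that end at 100426860, was stronger (14.6), and the strongest (19.97) lay inside Methig1, 16732 bp below the gene. The end summit thus scored below 3 of the other 4. The nearest paired summit was 37539 bp away, 673 bp outside Letmd1 (3.45 and 10.8).

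The ferritin genes had no paired summit within 20 kb. Fth1 (gene 14319, chromosome 19, 9980600 to 9985111) had 3 summits, all of replicate 2. The strongest of them, at 9980008, had a score of 16.9, at percentile 92.5 of its list, and lay 592 bp upstream of the outermost of the 2 listed starts (9980600; the other is at 9982646). Of the unpaired end summits of the 9 genes it had the highest score, and the nearest replicate 1 summit was 120946 bp from it. The other Fth1 summits, with scores of 10.7 and 9.01, lay 14537 and 13909 bp below the gene.

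Ftl1 (gene 14325, chromosome 7, 45457944 to 45459886) is 1943 bp long, so it has no body under the rule, and it had no summit at an end. It was the only gene of the 9 other than Ncoa4 and Tfrc with a replicate 1 summit within 20 kb. That summit, at 45467210, had a score of 2.31, at percentile 2.30 of replicate 1, was 10589 bp from the nearest replicate 2 summit and lay 307 bp outside Bax, a gene of programmed cell death. The 3 replicate 2 summits had scores of 5.31, 7.89 and 8.31 and lay inside or 4 bp outside Gys1, the muscle glycogen synthase gene. None of the 4 had Ftl1 as its nearest coding gene.

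Of the export and heme genes, Slc40a1 (gene 53945, chromosome 1, 45908070 to 45926532) was the only one of the 9 besides Ftl1 that lacked summits of both lists at its ends and in its body. Its 3 replicate 2 summits, all 12733 to 18922 bp below the gene, had scores of 6.37, 9.69 and 9.01. Hmox1 (gene 15368, chromosome 8, 75093618 to 75100593) had 5 summits of replicate 2 alone. The one at 75094524, 906 bp inside the lower end, had a score of 10.2, at percentile 66.8, and was the highest of the 5. The 2 farthest above the gene (9.88 and 3.65) were nearest to Mcm5, a gene of the replicative helicase.

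The iron regulatory protein genes had summits of replicate 2 alone, none at an end. Aco1 (gene 11428, chromosome 4, 40143265 to 40199009) held 3 in its body, at 40159967 (score 4.74), 40171750 (13.7) and 40172494 (9.78), and had 2 more inside Ddx58, the gene of the RNA sensor RIG-I (5.92 and 7.13). Ireb2 (gene 64602, chromosome 9, 54862658 to 54912534) held 2, at 54872202 (12.5) and 54906201 (8.39). Its strongest summit, at 54842724 with a score of 23.5, lay 19934 bp below the gene, just inside the span of 20 kb, and was the highest of all 35 unpaired replicate 2 summits around the 9 genes. Both genes are long, and 54.4% of all coding genes with a body had a replicate 2 summit in it.

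Using all replicate 2 summits, 5 of the 9 genes had one within 1 kb of an end (Ncoa4, Tfrc, Fth1, Slc11a2 and Hmox1), against 22.2% of all coding genes. In the body, 4 of 8 had one (54.4% of all), and all 9 had one within 20 kb (80.9% of all). With all replicate 1 summits these counts were 2 at an end (9.42% of all), 1 in the body (13.3%) and 3 within 20 kb (34.3%). The 35 unpaired replicate 2 summits around the 9 genes had a median score of 8.69, and all unpaired summits of that list one of 8.31, against 12.4 for its paired ones. Nearest to the limit of 1 kb were the Tfrc summit at 951 bp and the Hmox1 summit at 906 bp on the inner side, and the Ftl1 summit at 1323 bp and another Hmox1 summit at 1403 bp on the outer.

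**Figure D3:**
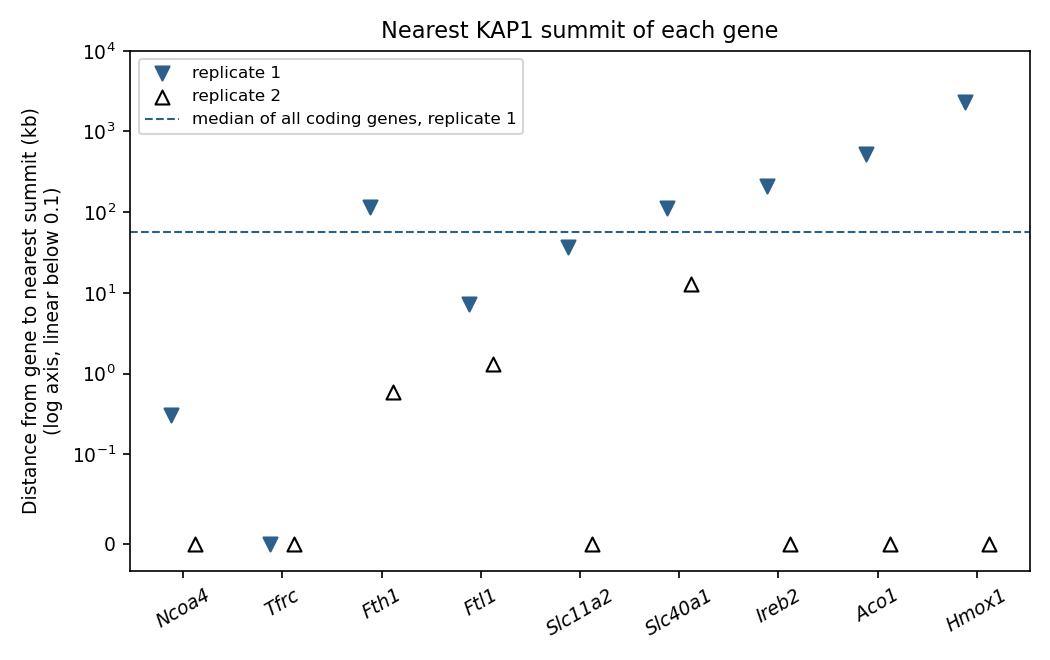
Distance in kb (log axis, linear below 0.1) from each gene to the nearest summit of replicate 1 (filled) and replicate 2 (open), where 0 is a summit inside the gene. The dashed line is the median over coding genes for replicate 1, 56848 bp, and 5 genes lie above it, Hmox1 highest at 2322506 bp.

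The distance from a gene to its nearest replicate 1 summit spread widely among the 9. It was 0 bp at Tfrc, 307 bp at Ncoa4, 7324 bp at Ftl1 and 37539 bp at Slc11a2. It was 113175 bp at Slc40a1, 115843 bp at Fth1, 213853 bp at Ireb2, 524225 bp at Aco1 and 2322506 bp at Hmox1. The median of the 9 was 113175 bp, and that of 21644 coding genes was 56848 bp, with quartiles of 6488 and 260091 bp. Aco1 and Hmox1 lay beyond the upper quartile, while Tfrc and Ncoa4 lay below the lower. In replicate 2 the 9 genes had a median of 5 summits within 20 kb, where the median coding gene had 3, and 6.67 per 100 kb, where it had 4.12.

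Wider iron metabolism was followed in a list of 61 further genes, all of which were found. It covers iron transport, heme synthesis, iron-sulfur cluster assembly and their regulation. The list also holds broader genes of autophagy (such as Atg5 and Atg7), ubiquitin ligases (such as Cul1 and Rbx1) and stress responses (such as Hif1a and Keap1). Of the 61 genes, 1 had a paired end summit (1.64%, where 8.56% of all coding genes had one). It was Slc39a14, which encodes the ZIP14 carrier of iron not bound to transferrin. Its summit lay 367 bp outside the lower end, at 70303100 on chromosome 14, with scores of 14.4 and 27.1, close to those of the Tfrc end summit. The positions in the replicates were 51 bp apart, so that with pairs within 50 bp 0 of the 61 genes had a paired end summit, where 8.005% of all coding genes did. With ends of 2500 bp, 4 genes had one, the further ones being Hif1a, Keap1 and Rbx1, where 12.7% of all coding genes did. Using all replicate 2 summits, 14 of the 61 had one within 1 kb of an end (23.0%, where 22.2% of all did). In the body 8 of 58 had a paired summit (13.8%, where 12.4% of all did). Named after their values were seen, those with more than 1 were Nfe2l2 with 3, and Atg7 and Tmprss6 with 2 each. The share of all coding genes with more than 1 was not computed, so these counts have nothing to be set against. Nfe2l2 encodes NRF2, an activator of ferritin and heme oxygenase genes, and Atg7 an enzyme of autophagosome formation. Within 20 kb, 24 of the 61 had a paired summit (39.3%, where 32.7% of all did).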

How the data were processed

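The deposited summit scores are −log10 values as MACS writes them; the lists do not state if they stand for p or q. Per the submitters' processing notes, reads were handled with Bowtie2 (2.2.9), Picard (2.1.1) and MACS2 (2.2.1) on mm10. Settings, control and calling threshold: not given in the sources used here. The authors called each replicate separately. Positions are 1-based.

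Genes came from the RefSeq table of GRCm38.p6, which gives no strand. Strand and transcript starts were taken from the RefSeq promoter table of that build. A gene end is any position up to 1000 bp from the lowest or highest coordinate. Pairs (200 bp or closer) were counted at their replicate 1 position. All 9 genes are named, with every paired summit. Of the wider list, genes with a paired end summit are named, as are the 3 genes closest in score rank to the highest member. The members and lists were chosen with earlier results of these data known. With 2 samples of 1 group and no input list analysed here, no test was made, and depth, hence precision, is unknown. Alternatives were other pairing distances, end windows and spans, higher scores, and each list alone. Counting at gene ends was checked on simulated summits planted below the lower end of genes. Counts in the body and within 20 kb were not checked in this way. Python 3.11.15, pandas 2.3.3 and numpy 2.4.6 were used.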

Additional observations from a re-analysis of the deposited data

How the results depend on the processing

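Of 31 recomputed counts, 23 stayed within 1.5 times the reported one and 8 did not. Omitting 1 replicate gave 2 to 5 members with an end summit, 1 to 4 with a body summit and 3 to 9 within 20 kb. Of the 61 genes of the wider list, 1 had an end summit in replicate 1 alone (1.64%, where 9.42% of all coding genes had one). In replicate 2 alone 14 had one (23.0%, where 22.2% of all did). The highest count was in each case that of all replicate 2 summits, which are more numerous. Pairing within 50 bp left 0 members with a body summit (Tfrc was lost, its summits being 85 bp apart), where 11.8% of all coding genes had one, and 0 genes of the wider list with an end summit (Slc39a14, 51 bp apart), where 8.005% did. Ends of 2500 bp gave 4 genes of the wider list, where 12.7% of all did, and a span of 50 kb gave 4 of 9 members (Ftl1 and Slc11a2 added), where 45.7% of all did. Ncoa4 and Tfrc had a paired end summit with pairing within 50 and 500 bp, ends of 500 and 2500 bp, scores at or above both medians and replicate 2 reduced to its 8862 highest scores, and each list alone had an end summit at both genes. No paired analysis was possible because no value here comes from a test between groups, the files used here being lists of the KAP1 samples alone. The unknown read depth limits what a missing summit in replicate 1 shows.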
